A study of Homo sapiens with 40 samples.

Results

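The regions described here were the enhancers of ordinary width that EndoC-βH3 cells kept in both the non-senescent and the senescent state. They were chosen by measured values. A member is a peak of H3K27ac, the acetylated histone mark of active promoters and enhancers, that is under 10000 bp wide, overlaps by at least 1 bp an enhancer listed in senescent cells and one listed in non-senescent cells, and lies outside 2 kb of every start site of a protein-coding transcript in GENCODE 44. Of 51489 H3K27ac peaks, 9188 (17.8%) were members, and they made up 89.7% of the 10242 peaks that overlapped both lists. The other peaks on both lists were 308 of 10000 bp or wider and 746 within 2 kb of a start site. Enhancers listed in 1 state alone held 2623 peaks (senescent) and 4291 peaks (non-senescent), and 34333 peaks were on neither list.

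EndoC-βH3 is an established human pancreatic beta-cell line that was immortalized with genes which a tamoxifen-activated Cre recombinase can cut out. The senescent libraries came from cells treated with 4-hydroxytamoxifen for 3 weeks and the non-senescent libraries from untreated control cells, all of wild-type genotype per the labels and all of this 1 line, so the agent, the loss of the immortalizing genes and the senescent state cannot be told apart. H3K27ac and CTCF were each profiled by chromatin immunoprecipitation sequencing in 3 senescent and 3 non-senescent libraries, and the enhancer mark H3K4me1 and the retinoblastoma protein Rb in 2 and 2 libraries. Each had its own input library, which brought the total to 40. Enhancers are stretches of DNA at which transcription factors gather and from which they raise the transcription of genes that may lie far away. In beta cells they are bound by factors such as PDX1, NKX6-1, NEUROD1, FOXA2 and the MAF proteins, and acetylation of H3K27 marks those in use.

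Beta-cell identity was checked at promoters. Peaks within 2 kb of a start site were present for 30 of 35 genes on a list of beta-cell transcription factors, with mean normalized counts of 10149 at PDX1, 13804 at NKX2-2 and 16247 at PAX6. INS, the insulin gene, was covered by a peak of 3078 counts. Of the markers of other cell types, 7 of 8 alpha-cell genes, 4 of 6 delta- and PP-cell genes, 4 of 14 acinar and duct genes and 2 of 12 neuronal and fibroblast genes had a peak at a start. The defining genes GCG, PPY, PRSS1, COL1A1 and SOX10 had none, SST had 54.2 counts, while IRX2 had 3342 and CPA1 1498.

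Sequences of members illustrate the elements they hold. The first 3 lines are windows of 200 bases from hg38, forward strand, taken where the matches to 20 transcription-factor motifs were densest, in 3 members of high mean count. Capitals mark the motif matches. The windows lie at chr20:22490048-22490247, chr20:22523809-22524008 and chr20:22512501-22512700, nearest to FOXA2, a forkhead factor of endoderm and islet development. The first FOXA2 window holds matches for HNF1, ISL1, an interferon-stimulated response element (ISRE) and AP-1, the second for AP-1, forkhead and the NEUROD1 E-box, and the third for AP-1, forkhead, AP-1 and GATA.
FOXA2 window 1: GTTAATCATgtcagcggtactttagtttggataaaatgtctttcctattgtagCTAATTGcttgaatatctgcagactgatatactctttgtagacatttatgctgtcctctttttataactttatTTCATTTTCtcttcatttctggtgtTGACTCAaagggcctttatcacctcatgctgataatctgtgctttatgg
FOXA2 window 2: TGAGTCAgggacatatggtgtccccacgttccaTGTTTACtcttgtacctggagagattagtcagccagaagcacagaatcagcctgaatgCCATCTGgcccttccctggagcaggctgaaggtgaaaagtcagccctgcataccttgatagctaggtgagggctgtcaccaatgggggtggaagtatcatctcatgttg
FOXA2 window 3: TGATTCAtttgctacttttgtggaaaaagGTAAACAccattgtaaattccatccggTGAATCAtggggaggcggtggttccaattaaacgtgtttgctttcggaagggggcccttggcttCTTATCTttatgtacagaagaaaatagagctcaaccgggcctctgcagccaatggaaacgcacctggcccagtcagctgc

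The next windows come from members whose H3K27ac differed most between the states relative to its standard error, and are shown as examples. They do not stand for the motif shares given further on, and lost members can also hold a MAF half-site, as 15.6% of them did. The members nearest to LMO2 (chr11:33934480-33934679) and DIS3L2 (chr2:232324312-232324511) had more H3K27ac in senescent cells, and the one nearest to MSI2 (chr17:57469635-57469834) had less. Capitals again mark all motif matches.
LMO2, gained: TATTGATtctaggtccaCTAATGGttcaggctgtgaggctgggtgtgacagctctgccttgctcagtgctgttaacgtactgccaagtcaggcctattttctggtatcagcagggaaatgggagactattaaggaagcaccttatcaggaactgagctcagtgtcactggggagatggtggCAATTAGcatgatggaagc
DIS3L2, gained: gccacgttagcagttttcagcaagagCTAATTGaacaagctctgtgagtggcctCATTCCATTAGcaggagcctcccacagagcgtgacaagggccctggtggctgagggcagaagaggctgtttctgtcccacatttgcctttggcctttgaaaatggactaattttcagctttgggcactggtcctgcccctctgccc
MSI2, lost: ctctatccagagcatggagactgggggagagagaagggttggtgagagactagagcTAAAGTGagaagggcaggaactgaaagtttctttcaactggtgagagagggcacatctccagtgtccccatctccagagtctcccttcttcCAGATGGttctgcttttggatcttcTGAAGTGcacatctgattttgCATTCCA
Capitals in the following windows mark only the MAF half-site, TGCTGAC or its reverse complement, in the first 2 gained members with a match near the peak centre, LMO2 (chr11:33934641-33934840) and DIS3L2 (chr2:232324478-232324677), and only the NEUROD1 E-box, CAGATGG or its reverse complement, in the first 2 lost members with at least 2 matches there, of which the WNK2 window shows 1, WNK2 (chr9:93299519-93299718) and C1QA (chr1:22613332-22613531).
LMO2, MAF half-site: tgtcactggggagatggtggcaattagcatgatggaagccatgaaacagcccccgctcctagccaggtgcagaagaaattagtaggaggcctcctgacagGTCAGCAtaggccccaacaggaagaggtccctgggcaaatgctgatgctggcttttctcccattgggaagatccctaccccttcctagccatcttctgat
DIS3L2, MAF half-site: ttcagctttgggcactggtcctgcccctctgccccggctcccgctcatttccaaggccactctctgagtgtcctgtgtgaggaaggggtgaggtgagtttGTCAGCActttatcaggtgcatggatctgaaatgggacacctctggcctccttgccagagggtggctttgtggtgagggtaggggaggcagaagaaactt
WNK2, E-box: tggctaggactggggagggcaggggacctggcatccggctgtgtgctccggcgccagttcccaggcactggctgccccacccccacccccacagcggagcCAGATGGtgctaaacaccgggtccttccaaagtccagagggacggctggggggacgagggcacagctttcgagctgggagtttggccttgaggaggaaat
C1QA, E-box: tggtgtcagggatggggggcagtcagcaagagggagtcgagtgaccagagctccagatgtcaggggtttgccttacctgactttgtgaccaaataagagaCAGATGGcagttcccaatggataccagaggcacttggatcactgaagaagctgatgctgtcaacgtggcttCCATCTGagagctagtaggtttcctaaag

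The members were strong peaks. Their mean normalized H3K27ac count over the 6 libraries had a median of 387 (interquartile range 230 to 679) and ran from 57.6 to 12321.5, whereas 17676 of all peaks had under 58. The median was 134 in enhancers of the senescent list alone, 131 in those of the non-senescent list alone and 119 over all peaks. Members were 3278 bp wide at the median (interquartile range 2438 to 4573) and spanned 34.3 Mb in all. They held 27.1% of the counts summed over all peaks. Per kb of peak, the median level was 114 counts in members, 66.7 and 66.2 in the state-specific enhancers and 193 in the shared enhancers of 10000 bp or wider. The tables give 1 mean over all libraries for each peak, not a value per library, so levels within each state could not be shown.

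The highest mean count stood in an intergenic peak of chromosome 21 (6367120 to 6373118), 4148435 bp from the nearest protein-coding start, that of TPTE. Its 12321.5 counts, or 2054 per kb, exceeded those of the next 2 together. These were a peak near TEX44 on chromosome 2 (231602028 to 231607978) with 6458 counts and one 747633 bp from SORCS1 on chromosome 10 (107912339 to 107921828) with 5288. SORCS1 encodes a sorting receptor of neurons and endocrine cells. The remaining 2 of the 5 highest were nearest to SOCS6, an inhibitor of cytokine signalling (5123 counts, 58497 bp away), and NBPF9 (4775 counts). By density, the members near NBPF9 (946 per kb) and PPIAL4G (864 per kb) on chromosome 1 and near CFAP126 (774 per kb) joined those near TPTE and TEX44 at the top. NBPF and PPIAL4 genes are families of near-identical copies. How reads that match several places were placed is not given in the sources used here. These levels and that of the chromosome 21 peak are therefore uncertain. Whether the sequence of the chromosome 21 peak is unique in the genome was not tested.

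In H3K27ac the members as a whole had nearly the same median change as all peaks (0.0075 on the log2 scale), with a spread on both sides. Scaling by size factors centres the changes, so this median cannot show whether the mark as a whole rose or fell. These values come from the same 3 and 3 libraries as the lists that chose the members, so they are a description and not a test. The log2 fold change, senescent over non-senescent, in the authors' deposited table had a median of -0.020 (interquartile range -0.35 to 0.31) and ran from -2.13 to 2.20. Its standard error had a median of 0.11, and 3599 members (39.2%) changed by under 0.25 in either direction. With the study's limits of 1.5-fold and 0.05 for the adjusted p, 1033 members were gained in senescent cells and 1202 were lost, or 11.2% and 13.1%. Over all H3K27ac peaks 9.47% were gained and 13.1% lost. In every member beyond 1.5-fold the adjusted p was also past the threshold, so the fold set the call. Beyond 2-fold lay 247 members upward and 266 downward. The libraries are numbered in the labels, but nothing says that they came from separate cultures, so the standard errors measure the spread between these libraries, which may be technical.

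**Figure D1:**
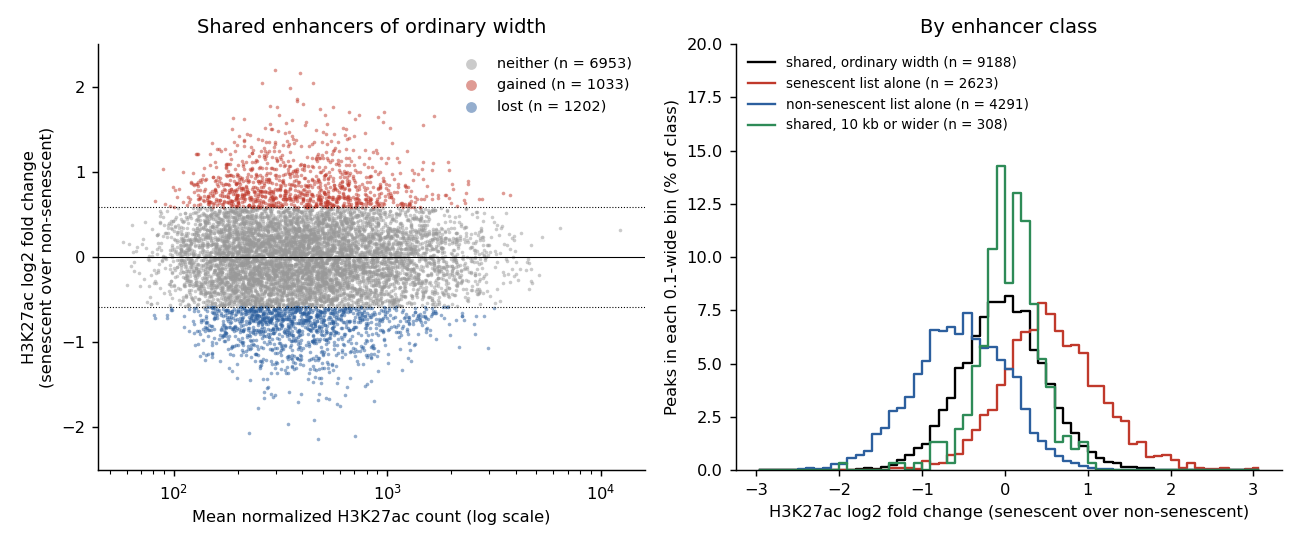
Left, each point is 1 of the 9188 members, with its mean normalized H3K27ac count on a log axis and its log2 fold change, senescent over non-senescent; dotted lines mark a fold change of 1.5 and colours mark 1033 gained and 1202 lost members. Right, the share of peaks in bins of log2 fold change for members, peaks of either list alone and shared enhancers of 10000 bp or wider; members centre near -0.020 and lie between the peaks of the senescent list alone (median 0.54) and of the non-senescent list alone (median -0.53).

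Being on both lists did not mean equal extent. The median member was covered over 87.8% of its bases by a senescent enhancer and over 84.1% by a non-senescent one. In gained members the coverage was 94.9% and 64.1%, and in lost members 70.9% and 95.5%. The lists and the fold change rest on the same reads, so this is 1 measurement seen in 2 ways. The spread of the change was similar across levels. Among members split by mean count into 4 equal groups, 260, 281, 292 and 200 were gained and 245, 382, 339 and 236 lost from the lowest group to the highest. The median standard error fell from 0.16 in the lowest group to 0.080 in the highest.

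The 6 largest gains relative to error were 2.92-fold to 4.13-fold. The peak 38348 bp from LMO2, a cofactor of haematopoietic transcription factors, on chromosome 11 (33930424 to 33939487) stood at 1.66 on the log2 scale (standard error 0.069). In an intron of DIS3L2, an RNA-degrading enzyme, on chromosome 2 (232321760 to 232327063) it was 1.55 with a standard error of 0.073. In introns of FAIM2, an inhibitor of cell death, and of LHX4, a LIM-homeodomain factor of the pituitary, it was 1.64 and 1.70. An intronic peak of IFT122, a protein of ciliary transport, stood at 2.05, or 4.13-fold. The sixth, 224468 bp from DHX35, stood at 1.62.

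The largest losses relative to error were of up to 4.38-fold. In an intron of KCND3, with DDX20 as the nearest start 43623 bp away, on chromosome 1 (111799553 to 111806759), the change was -2.10 on the log2 scale (standard error 0.10). KCND3 encodes a voltage-gated potassium channel. In an intron of MSI2, an RNA-binding protein of progenitor cells, on chromosome 17 (57465747 to 57471237) it was -1.69 with a standard error of 0.087. A peak on chromosome 7 lay 117638 bp from SDK1, a cell-adhesion protein (-1.74). Further losses were 208748 bp from SALL3 (-2.13) and in an intron of WNK2, a kinase that regulates ion transport (-1.51).

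The limits of the rule cut through like peaks. Just under 10000 bp lay an intronic member of MCF2L (9998 bp, 3501 counts, log2 fold change 0.75) and one of RRBP1 (9981 bp, 765 counts, 0.033). Just over it lay a peak near SLC30A8, the zinc transporter of insulin granules (10006 bp, 4380 counts, 0.39), and one in BAIAP2L1 (10014 bp, 1474 counts, -0.60). The members nearest to a start were 2007 bp from DERL3 (258 counts, -0.085) and 2013 bp from DCAKD (249 counts, -0.77). Just inside 2 kb, and so not members, were a peak in an intron of SPEG, 1994 bp from an unnamed gene's start (1105 counts, 1.46), and one in SLC12A8 at 1989 bp (495 counts, -0.95).

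By the rule, members lay over 2 kb from a start, which sets them farther away than peaks that include promoters. The median distance to the nearest protein-coding start was 40178 bp, against 33025 bp in the senescent list alone, 43751 bp in the non-senescent list alone and 17625 bp over all peaks. The peak centre lay in an intron of a protein-coding gene in 4987 members (54.3%), between genes in 3934 (42.8%) and in an exon in 267 (2.91%). Over all peaks the shares were 58.4%, 32.8% and 8.79%. Of all members 11.2% were gained and 13.1% lost. Members between genes had a median log2 fold change of -0.057, with 400 gained (10.2%) and 624 lost (15.9%). Those in introns had 0.011, with 603 gained (12.1%) and 544 lost (10.9%). With distance the median went from 0.040 at 2 to 10 kb (184 gained, 156 lost) through 0.0088 at 10 to 50 kb (427 and 415) and -0.044 at 50 to 100 kb (149 and 232) to -0.076 at 100 to 500 kb (226 and 356). Beyond 500 kb it was -0.042 (47 and 43).

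Members were found on all 24 chromosomes, from 0.035 per Mb on chromosome Y and 1.31 on chromosome X to 4.84 on chromosome 17. GC content had a median of 43.2% (45.2% over all peaks), and the ratio of observed to expected CpG was 0.22, against 0.25 over all peaks. Split by GC content into 4 equal groups, members had medians of 0.0091, -0.028, -0.054 and -0.011 in log2 fold change, with 269, 231, 263 and 270 gained and 253, 289, 328 and 332 lost, so gain and loss were spread over the range of base composition.

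Members close to each other changed alike in part. When members up to 12.5 kb apart were joined, 6773 members stood alone, 909 pairs were formed and 186 clusters held 3 or more. Spearman's rho between the log2 fold changes of 1320 adjacent pairs within 12.5 kb was 0.42, and it was 0.32 within 50 kb (3199 pairs) and 0.23 within 200 kb (5867 pairs). The median absolute difference within a pair was 0.33, 0.37 and 0.40 in the same order. This is a description across regions that share libraries. Of 108 adjacent pairs in which both members were called, 102 had the same direction. The largest cluster, like the others given here chosen after the values were seen, held 7 members over 67353 bp in VAV2, a guanine nucleotide exchange factor, on chromosome 9 (133916628 to 133983980), with log2 fold changes from -0.055 to 0.36 and none called. Near FOXA2, 4 members over 40831 bp had 2087 to 3964 counts and changes from -0.51 to 0.071. In EPAS1, a factor of the hypoxia response, 4 members ran from 0.22 to 1.24, 2 of them gained. In DIP2B, 4 ran from -0.98 to 0.050, 2 of them lost. The cluster of 5 members near CDKN2B, a cell-cycle inhibitor, ran from -0.83 to 0.21, with 1 lost.

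Assigned to the nearest protein-coding start, members fell to 4622 of 20033 genes. A single member was nearest to 2687 genes and 10 or more to 57. Both a gained and a lost member were nearest to 115 genes, out of 862 genes with a gained and 945 with a lost member. Counts of calls per gene are small and are to be read against the 11.2% gained and 13.1% lost of all members. Whether any gene departs from these shares was not tested. ZNF608, a zinc-finger gene, had the most members, 28 with log2 fold changes from -1.03 to 1.15, 5 gained and 3 lost. WWOX, a large gene at a fragile site, had 19 (3 gained, 1 lost). EFNA5, an ephrin ligand, had 18 (2 gained, 3 lost), and BCOR, a transcriptional corepressor, 18 (0 gained, 3 lost). SDK1 had 16, of which 5 were lost and 0 gained, with a median of -0.32. CADM1, a cell-adhesion protein of islet endocrine cells, had 15, of which 4 were gained and 0 lost, with a median of 0.34. The nearest start is a convention and does not show which gene an enhancer acts on.

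Sequence differed between gained and lost members. The search covered 1000 bases about each peak centre on both strands for the letters of 20 motifs, without mismatches. MAF half-sites, TGCTGAC, bound by MAFA in beta cells, were present in 24.2% of 1033 gained members, 15.6% of 1202 lost members and 16.6% of the 6953 others. The share was 14.9% over all H3K27ac peaks and 11.6% in peaks at promoters. NEUROD1 E-boxes, CAGATGG, the site of a basic helix-loop-helix factor of beta-cell differentiation, showed the reverse order, with 19.6% in gained members, 36.9% in lost members and 28.0% in the others. Over all peaks the share was 22.8%, and at promoters 14.8%. Forkhead sites, TGTTTAC, were in 16.4% of gained and 23.9% of lost members. The split into gained and lost members rests on the H3K27ac libraries that also chose the members, so these shares are a description. A match is a run of letters and not a bound site.

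**Figure D2:**
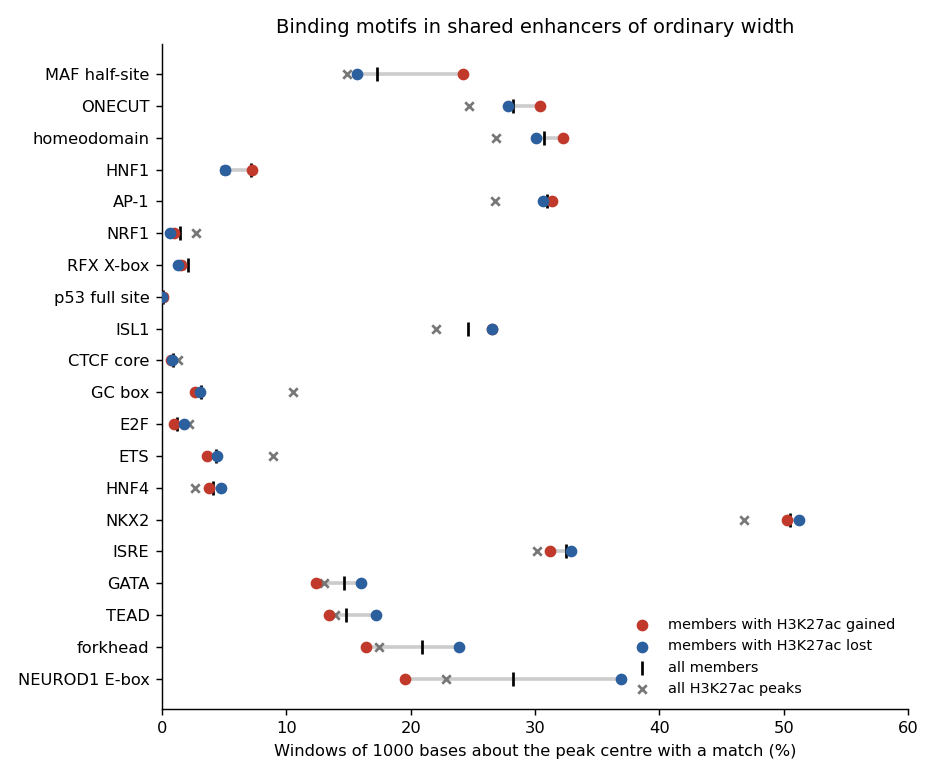
Share of 1000-base windows about the peak centre that hold each of 20 motifs, in members with H3K27ac gained (red) or lost (blue), in all members (bar) and in all H3K27ac peaks (cross), ordered by the difference of gained and lost. The MAF half-site (24.2% against 15.6%) and the NEUROD1 E-box (19.6% against 36.9%) stand at the ends.

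Both differences held within base composition. Among members below the median GC content, the MAF half-site was in 23.1% of gained and 14.3% of lost members, and above the median in 25.2% and 16.9%. The E-box was in 18.6% and 33.6% below the median and in 20.4% and 39.9% above it. The number of matches followed the same order. The median log2 fold change was 0.017 in 6593 members with no E-box, -0.097 in 2187 with 1, -0.21 in 371 with 2 and -0.25 in 37 with 3 or more, of which 0 were gained and 9 lost. For the MAF half-site it was -0.028 in 7597 members with none, 0.020 in 1441 with 1, 0.087 in 133 with 2 and 0.37 in 17 with 3 or more, of which 5 were gained and 0 lost. Where both motifs were present (470 members), 9.79% were gained and 18.5% lost. With the MAF half-site alone (1121 members) 18.2% were gained and 9.01% lost, and with the E-box alone (2125 members) 7.34% and 16.8%. State-specific enhancers had the same order, with the MAF half-site in 20.6% of the senescent list alone and 15.1% of the non-senescent list alone, and the E-box in 22.2% and 32.8%.

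The matches were most frequent at the middle of the peaks for the MAF half-site in gained members and for the E-box in lost members. The 6953 other members also rose toward the middle. Their shares in the 200-base bins next to the centre were 3.62% and 4.14% for the MAF half-site, against 2.57% and 2.03% around 1900 bp away. For the E-box they were 7.71% and 7.29%, against 3.55% and 3.77%. In bins of 200 bases, the MAF half-site was in 7.55% of gained members just downstream of the centre and in 6.29% just upstream, against 2.75% and 3.16% of lost members, whose shares ran from 2.00% to 3.74% over all bins with no peak at the centre. Around 1900 bp from the centre the shares of gained members were 2.90% and 2.32%. The E-box was in 11.1% and 10.1% of lost members on the 2 sides of the centre, against 5.13% and 4.84% of gained members, whose highest share, 5.23%, lay 1100 bp away, and 1900 bp away in 3.41% and 3.99% of lost members. Of 1759 MAF half-sites in the members' windows, 57 (3.24%) overlapped an AP-1 match, whose letters TGANTCA can run on from it, and 16 of 3045 E-boxes lay over a CTCF core.

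**Figure D3:**
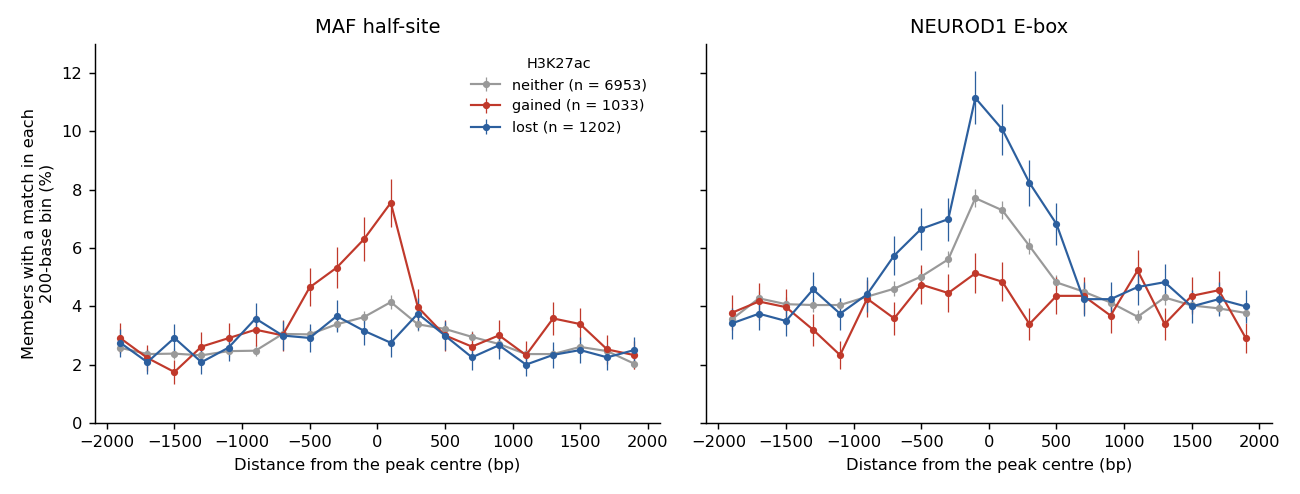
Share of members with a MAF half-site (left) or a NEUROD1 E-box (right) in each 200-base bin from the peak centre, for gained, lost and other members. Error bars are the standard error of a share and cover counting error only. Gained members peak at 7.55% for the MAF half-site and lost members at 11.1% for the E-box, both next to the centre, while the flanks lie near 2% to 5%.

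The other motifs differed by fewer percentage points between gained and lost members. AP-1, the site of FOS and JUN proteins, was in 31.4% and 30.6%. ONECUT (TATNGAT) was in 30.4% and 27.8%, homeodomain sites (TAATTA) in 32.2% and 30.03%, ISL1 (CTAATNG) in 26.5% of both, and NKX2 (CACTTNA) in 50.2% and 51.2%. HNF1 (GTTAATNAT) was in 7.26% and 5.07%, HNF4 (CAAAGTCCA) in 3.78% and 4.74%, and the RFX X-box (GTTGCCATG) in 1.55% and 1.248%. Sites of GATA factors (AGATAAG) were in 12.4% and 16.0%, TEAD (CATTCCA) in 13.5% and 17.2%, and the ISRE (GAAANNGAA) in 31.2% and 32.9%. The rule keeps members away from promoters, so low shares of promoter-type motifs were set by it in advance. The GC box (GGGGCGGGG) was in 3.13% of members and 30.7% of promoter peaks, the ETS site (CCGGAAG) in 4.34% and 21.8%, NRF1 (GCATGCGC) in 1.41% and 5.73%, and E2F (TTTNGCGC) in 1.18% and 5.03%. Shares were also low in the senescent and non-senescent lists alone, with the GC box in 3.24% and 4.12% and the ETS site in 4.42% and 4.82%. E2F sites were in 0.97% of gained and 1.75% of lost members (10 and 21), farther apart as a ratio than the forkhead sites, and the 108 members with one had a median log2 fold change of -0.18. The CTCF core was in 79 members (0.86%). The full p53 site was in 3 members, named here after their values were seen, near FMN1 (log2 fold change 1.98), WWOX (0.51) and CDKAL1 (-0.42).

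Members were also described by lists of genes, against the 11.2% gained and 13.1% lost of all members. Of 35 genes of beta-cell transcription factors, 23 were nearest to 86 members, of which 7 were gained (8.14%) and 9 lost (10.5%), with a median log2 fold change of -0.16. With the start within 100 kb, 4 were gained and 2 lost, and with the highest member of each gene, 2 and 0. The highest were in an intron of ST18, a zinc-finger factor (4199 counts, -0.14 with a standard error of 0.061) and 89906 bp from FOXA2 (3964 counts, 0.071). INSM1, an endocrine zinc-finger factor, had 4 members (-0.73 to -0.21, 1 lost). ESRRG, a nuclear receptor of mature beta cells, had 1 of 2589 counts (-0.012). MAFA, the activator of insulin transcription in mature beta cells, had 1 of 2011 counts in an intron of its neighbour ZC3H3 on chromosome 8 (143434950 to 143443198), at 0.17.

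The gains on that list were spread over single members. NKX6-1, a homeobox factor of beta cells, had 6, from a gained one 39777 bp away (1.09 with a standard error of 0.12) to a lost one (-1.07). FOXO1, a forkhead factor under insulin control, had 2, both gained (0.65 and 0.84). MEIS1, FOXA2 and ST18 had 1 gained member each, at 0.76, 0.82 and 0.69. Losses stood at SOX4, a factor of endocrine differentiation (2 of 4 members lost, lowest -1.23), ETV1 (2 of 10, lowest -1.23), GLIS3, an activator of insulin transcription (2 of 10, lowest -0.73), TCF7L2, the effector of Wnt signalling (1 of 8, lowest -0.61), and INSM1 (lowest -0.73). PAX6 (-0.38 and -0.16), RFX6 (-0.40), HNF4A (-0.41), MNX1 (-0.46), MYT1 (0.46), RFX3 (0.24 and 0.33), ISL1 (-0.23 to 0.16) and ONECUT2 (-0.29 to 0.38) had no called member. PDX1, NKX2-2, NEUROD1 and PAX4 were nearest to no member.

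**Figure D4:**
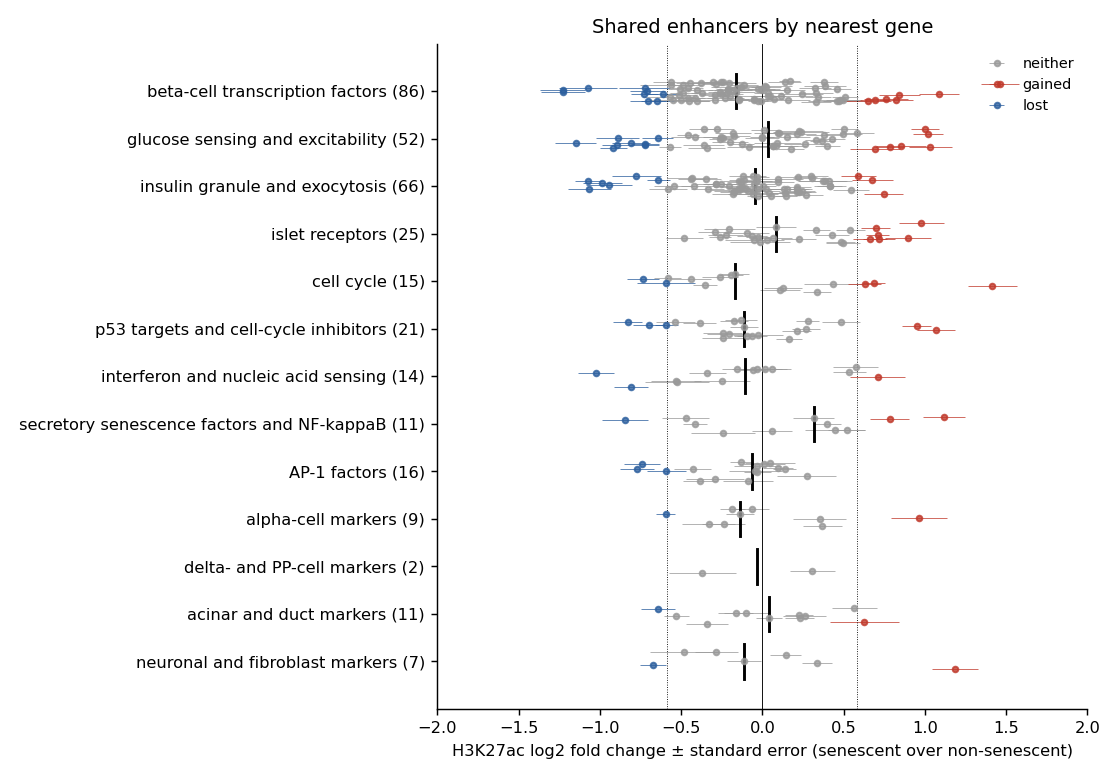
Each point is a member placed by the gene of its nearest start, with its log2 fold change and standard error; the number of members stands beside each list, the thick bar is the median and dotted lines mark a fold change of 1.5. The 86 members of beta-cell transcription factors include 7 gained and 9 lost, and the list of islet receptors has 6 gained and 0 lost members.

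Genes of beta-cell function were described in the same way. Of 52 members at genes of glucose sensing and excitability, 6 were gained (11.5%) and 8 lost (15.4%), with a median of 0.037 and shares near the 11.2% and 13.1% of all members. The highest gains were in introns of CACNA1D, a calcium channel gene (1.03), and KCNH2, a potassium channel gene (1.02), and the calcium-activated potassium channel KCNMA1 had 4 lost among 15 (lowest -1.15 and -0.92). The highest counts were in CACNB2 (2044, -0.0027), near the potassium channel KCNK16 (1854, -0.57) and in KCNMA1 (1778, -0.24). At genes of the insulin granule and exocytosis, 3 of 66 were gained (4.55%) and 6 lost (9.09%), with a median of -0.046. PCSK1, a proinsulin-processing enzyme, had 3 lost among 5 (lowest -1.07), SCG2 a gained one (0.75) and PTPRN2 2 gained (highest 0.68) and 1 lost among 15. The highest stood in RPH3AL (3154 counts, 0.41), near SLC30A8 (2961 counts, 0.15) and in SCG3 (2299 counts, -0.091). Islet receptors had 6 gained (24.0%) and 0 lost of only 25 members, with a median of 0.085. The gains were in ADRA2A (2, highest 0.98), GLP1R (1, 0.90), IGF1R (2, highest 0.71) and SSTR1 (1, 0.66). ADRA2A and SSTR1 restrain insulin release, and GLP1R, the incretin receptor, raises it.

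A member was nearest to 28.6% of the cell-cycle genes, 34.6% of p53 targets and inhibitors, 30.6% of interferon genes, 22.2% of secretory genes and 42.9% of AP-1 genes listed, against 23.1% of all protein-coding genes. With so few members a list, 1 or 2 calls move its share by much against the 11.2% gained and 13.1% lost of all members. Cell-cycle genes had 15 members at 8 of 28 genes, with 3 gained, near CCNE1 (1.42), MYCN (0.69) and MKI67 (0.63), and 2 lost, in MYBL2 (-0.73) and near MYC (-0.59). The promoter of MKI67 itself, a proliferation gene, stood at -2.29 and gave the direction of the scale. Targets of p53 and inhibitors of the cell cycle had 21, with 2 gained, near GADD45A (1.07) and CDKN1C (0.95), and 3 lost, near CDKN2B (2, lowest -0.83) and GADD45A (-0.70). Interferon and nucleic acid sensing genes had 14, with 1 gained (TYK2, 0.71) and 2 lost, both near the interferon receptor gene IFNAR2 (-1.02 and -0.81). Secreted senescence factors and NF-kappaB genes had 11, of which IGFBP7 had 2 gained (1.12 and 0.78) and 1 lost (-0.85), while IL6, CCL2 and CXCL1 were nearest to none. AP-1 genes had 16, with 0 gained and 3 lost, all near MAF (lowest -0.77). The study's own lists, chosen by its authors and so no independent evidence, are likewise to be read against 11.2% and 13.1%. They gave 19 gained (15.2%) and 22 lost (17.6%) of 125 members for the p53 pathway, 7 and 10 of 59 for E2F targets, 3 and 3 of 17 for the cell cycle, 13 and 15 of 136 (9.56% and 11.0%) for beta-cell maturity, 23 and 22 of 199 (11.6% and 11.1%) for insulin secretion, 21 and 25 of 193 (10.9% and 12.95%) for interferon-stimulated genes, 4 and 7 of 27 for the secretory phenotype and 0 and 0 of 2 for antigen presentation.

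Markers of other cell types had members too, with calls in both directions in 3 of the 4 lists. Alpha-cell markers had 9 members (1 gained near IRX1, 0.96, and 1 lost near LOXL4, -0.59), delta- and PP-cell markers 2 (GHSR, 0.31, and HHEX, -0.37, neither called), acinar and duct markers 11 (1 gained at CFTR, 0.63, and 1 lost near SOX9, -0.64), and neuronal and fibroblast markers 7 (1 gained, 1.18, and 1 lost, -0.67, both in RBFOX3). In these bulk libraries, fewer cells of a type and less acetylation per cell cannot be told apart.

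CTCF, the zinc-finger protein that sets the ends of chromatin loops, was profiled in libraries that the rule did not use, so its change is the comparison that is independent of the choice of members. CTCF peaks overlapped 2444 members (26.6%, against 26.7% of all H3K27ac peaks, 20.7% of the senescent list alone and 20.5% of the non-senescent list alone), with 2761 CTCF peaks in all. These shares take no account of width. Median width was 3278 bp in members, 1742 bp over all peaks and 1931 and 1933 bp in the 2 lists alone. Members with a CTCF peak were 3752.5 bp wide at the median, and those without 3146 bp. Of the 2761 CTCF peaks, 1974 had an adjusted p in the authors' deposited DESeq2 table. With limits of 1.5-fold and 0.2 for the adjusted p, 43 were gained (2.18%) and 59 lost (2.99%). Over all 39485 CTCF peaks tested 2.99% were gained and 4.28% lost. The median log2 fold change was -0.048 in members, 0.037 in the senescent list alone, -0.12 in the non-senescent list alone and -0.012 over all CTCF peaks. Whether these medians differ was not tested. Most CTCF peaks in members were weak, with a median of 38.2 counts against 58.6 over all.

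Change in CTCF went with change in H3K27ac at the same member. In members with H3K27ac gained, 17 of 202 tested CTCF peaks were gained (8.42%) and 3 lost (1.49%). In members with H3K27ac lost, 4 of 245 were gained (1.63%) and 13 lost (5.31%), and in the others 22 of 1527 were gained (1.44%) and 43 lost (2.82%). At the 43 gained CTCF peaks the member's H3K27ac log2 fold change had a median of 0.40 and was above 0 at 33, and at the 59 lost CTCF peaks it had a median of -0.32 and was above 0 at 17. Across the 2761 peaks Spearman's rho between both fold changes was 0.17, over regions and not over samples. GC content moved with the CTCF change in members (rho = -0.27). With CTCF peaks split by GC content into 4 equal groups, 22, 10, 7 and 4 CTCF peaks were gained and 9, 10, 13 and 27 lost from the lowest group to the highest. With the GC trend of CTCF peaks outside H3K27ac peaks taken off, 24 were gained and 30 lost in members (0.87% and 1.09%, against 0.90% and 1.73% of all CTCF peaks), 39 of these 54 among the 102 called before. The order by H3K27ac was the same, with 10 gained and 3 lost CTCF peaks in gained members and 4 and 9 in lost members.

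**Figure D5:**
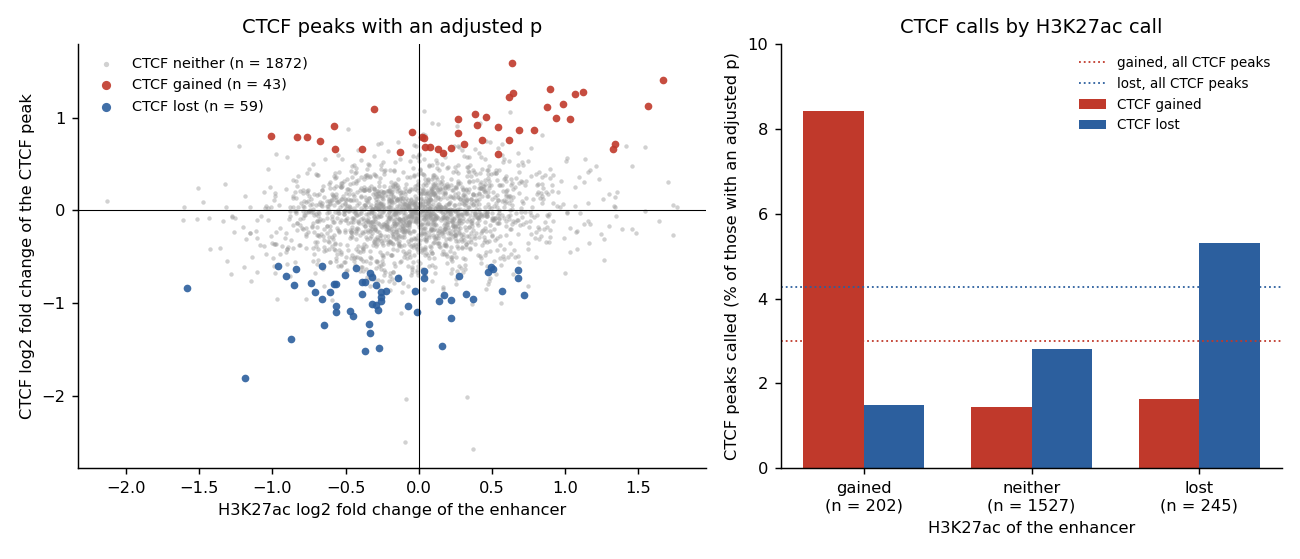
Left, each point is a CTCF peak in a member with an adjusted p, by the H3K27ac log2 fold change of the member and its own CTCF log2 fold change; 43 are gained and 59 lost. Right, the share of tested CTCF peaks called gained or lost in members with H3K27ac gained, neither or lost, with dotted lines at 2.99% and 4.28%, the shares over all CTCF peaks; the gained share is 8.42% in gained members and 1.63% in lost ones.

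Among single sites, the smallest adjusted p of the gained CTCF peaks stood 441009 bp from GRM7 on chromosome 3 (6327595 to 6328257), at 1.59 on the log2 scale for CTCF with a standard error of 0.37 (DESeq2 adjusted p = 0.0030). The member's H3K27ac changed by 0.64. The next was on chromosome 22 (49362290 to 49363269), 460886 bp from BRD1, at 1.11 with a standard error of 0.26 (DESeq2 adjusted p = 0.0037), with H3K27ac at 0.88. The others were near TAFA2 (0.79, not called after the GC trend was taken off) and TDRD15 (0.72), with H3K27ac at 0.036 and 0.31. Of the lost CTCF peaks, the first lay 22685 bp from DNAJB12 on chromosome 10 (72319333 to 72319943), at -1.82 with a standard error of 0.42 (DESeq2 adjusted p = 0.0029) and H3K27ac at -1.19. The next was in an intron of PRKCE, a protein kinase C gene, at -0.90 with a standard error of 0.23 (DESeq2 adjusted p = 0.0079) and H3K27ac at -0.39. The others were near GALNT16 (-1.03) and KCNRG (-1.52).

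The CTCF core motif, without mismatches, was in 253 of the 2761 CTCF peaks in members (9.16%) and in 13.5% of all CTCF peaks. CTCF peaks with the core were stronger, with a median of 230 counts against 34.0 without it, and their log2 fold changes were narrower (interquartile range -0.12 to 0.16 against -0.34 to 0.19). Of those tested, 3 of 245 with the core were gained and 4 lost, against 40 and 55 of 1729 without it. Windows of 60 bases about the core, in capitals, are shown for the first gained and lost peaks that hold it. They lie at chr3:192130692-192130751 in the FGF12 member (CTCF log2 fold change 0.83), at chr7:158355694-158355753 in the PTPRN2 member (0.91), at chr13:50389964-50390023 in the KCNRG member (-1.52) and at chr13:32228425-32228484 in the ZAR1L member (-0.67), all hg38, forward strand. The gain at FGF12 (0.63) and the loss at ZAR1L (-0.72) were not called once the GC trend was taken off. The loss at ZAR1L did not shrink with it. Both stayed beyond 1.5-fold, and their adjusted p, computed anew over all CTCF peaks with a p-value, lay above 0.2.
FGF12, CTCF gained: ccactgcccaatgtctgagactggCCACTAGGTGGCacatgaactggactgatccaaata
PTPRN2, CTCF gained: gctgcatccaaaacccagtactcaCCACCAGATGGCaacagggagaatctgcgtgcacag
KCNRG, CTCF lost: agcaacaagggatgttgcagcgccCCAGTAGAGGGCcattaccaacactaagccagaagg
ZAR1L, CTCF lost: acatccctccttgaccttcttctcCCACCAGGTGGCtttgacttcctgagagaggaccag

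Rb, the repressor of E2F target genes, was covered only by a list of regions bound more in senescent cells. Regions bound alike in both states are not on it, so Rb occupancy of members as a whole was not measured. Of the 2435 regions the authors listed as bound more in senescent cells, 38 overlapped 37 members, or 0.40% of members against 0.69% of all H3K27ac peaks, 0.23% of the senescent list alone and 0.26% of the non-senescent list alone. Per Mb, members held 1.11 Rb regions and all H3K27ac peaks, which include promoters, 3.02. The 37 members had a median of 974 H3K27ac counts, above the 387 of all members, and a median log2 fold change of -0.044. Of them 1 was gained and 4 were lost, the latter including those near SEMA3A (-0.78) and MAF (-0.77) and in BCAR3 (-0.69), named after their values were seen. The list gives positions alone, so the strength of Rb binding was not compared.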

How the data were processed

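The data were chromatin immunoprecipitation sequencing libraries of EndoC-βH3 cells, with groups (antibody, state) taken from the labels. According to its methods, the authors used Trim Galore for trimming, Bowtie2 for alignment to hg38, HOMER for peaks of both histone marks and MACS2 for peaks of CTCF and Rb, took overlaps of H3K27ac and H3K4me1 outside promoters as enhancers, and compared counts in peaks with DESeq2. Versions are not given in the sources used here, nor is the way replicates were joined into peak lists. CTCF peaks were to be filtered for a CTCF motif, yet most of those in the deposited table held no exact core.

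The deposited signal is the authors' mean of counts over size factors, over all libraries of a mark. DESeq2 also gave the authors' deposited log2 fold changes with standard errors, a deposited score (the Wald statistic, their quotient) and the deposited p-value, raw and adjusted. Of the CTCF peaks, 11972 have no adjusted p and stayed uncalled. The region lists hold positions alone. Counts per library and depth are not in these tables. The test planned on counts was therefore not run, and the authors' comparison columns were used at the study's thresholds. As a measure of depth, the mean counts of all H3K27ac peaks add up to 19239500 and those of CTCF to 6136420. Scaling by size factors centres the changes, so a shift of a whole mark cannot be seen.

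Positions were read as hg38, with all chromosome names matching and 0 ends beyond a chromosome, and are printed from base 1. Overlaps, distances to 89054 starts of protein-coding transcripts in GENCODE 44, motif matches (1000-base windows, both strands, no mismatch) and summaries were computed with Python 3.11.15, pandas 2.3.3 and pysam 0.24.0, tested on simulated data. The CTCF alternative with a GC trend took from each log2 fold change the median of its GC decile among CTCF peaks outside H3K27ac peaks. Its p came from the deposited standard error, with Benjamini-Hochberg adjustment over all 51456 CTCF peaks with a p-value. Members were named by rank: highest mean count and density, largest quotient of log2 fold change and standard error, most members per gene, highest and most changed per gene list, smallest adjusted p for CTCF, and nearest to the limits of the rule. The windows with MAF half-sites and E-boxes, the clusters, and MKI67, SSTR1 and the gene counts within lists beyond these ranks were chosen after the values were seen. The members, gene lists and motifs were chosen with earlier results of these data known, so no list or split of members is an independent test. Some members and 1 sequence that these ranks select are not reported here. The 13 lists and 8 lists of the study were matched by symbol or older symbol.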

Additional observations from a re-analysis of the deposited data

How the results depend on the processing

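The number of members, their median H3K27ac change and the number of Rb regions moved by less than the limits set (1.5 times for a count, the median standard error for a change) under a width limit of 5000 bp, 0.5 of the peak inside each list, a start window of 5 kb and start sites of all gene types, with 7349 to 8503 members. A fold change above 2 left 247 gained and 266 lost members, fewer by construction, and an adjusted p under 0.01 left 1030 and 1200. No paired analysis was possible because the tables hold no values per library, and leaving out replicates could not be done for the same reason. Gained and lost CTCF peaks in members came to 26 and 37 with the width limit of 5000 bp, 9 and 12 at an adjusted p under 0.05, 21 and 29 with at least 50 counts, and 24 and 30 with the GC trend taken off. With Benjamini-Hochberg adjustment over every CTCF peak, an alternative chosen after seeing the data, they came to 38 and 72. In windows of 500 bases the MAF half-site was in 15.4% of gained and 7.40% of lost members, the NEUROD1 E-box in 11.3% and 24.1%, and the forkhead site in 8.42% and 14.2%, all lower since the windows are shorter, with the ratios of gained to lost members at 2.08, 0.47 and 0.59 against 1.55, 0.53 and 0.69 in 1000 bases. With introns and exons of all gene types, 454 members were exonic. Over the 13 gene lists, 33 gained and 37 lost members became 23 and 21 when the start had to lie within 100 kb, and 13 and 7 when 1 member stood for each gene. The median standard error in members was 0.35 for CTCF and 0.11 for H3K27ac, and depth per library, which is not in these tables, was not tested.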
